A study of Homo sapiens with 6 samples.

Results

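The genes described here code for the kinetochore, the protein assembly that ties each chromosome to the mitotic spindle, and for the centromere on which it is built. The 40 genes were listed by name and by complex, and a gene was taken where a row of the deposited table carried exactly that name. Rows were found for 38 of the 40, among 37879 rows in all. CENPT and SKA3 had no row under these names and were not analysed here. Of the 38 rows, 37 were detected on all 6 arrays and stood among the 13285 rows kept for testing. CENPI, a subunit of the constitutive centromere network, was detected on 0 arrays, with detection p-values between 0.0792 and 0.350, and was not tested.

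Kinetochores assemble on chromatin that carries the histone H3 variant CENP-A. A network of centromere proteins binds this chromatin through the whole cell cycle, and in mitosis it recruits the KNL1, MIS12 and NDC80 complexes, the last of which grips microtubules. The SKA complex strengthens that grip, the RZZ complex takes part in the spindle checkpoint, and the chromosomal passenger complex corrects faulty attachments.

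Arrays of the Illumina HumanWG-6 v3 type were hybridized with total RNA of HEK293T cells, a human embryonic kidney line that carries the SV40 large T antigen. The 3 control samples came from cells given an empty vector. The 3 Stau1 samples came from cells given plasmids that code for Stau155-FLAG, the tagged 55-kDa isoform of the RNA-binding protein Staufen1. The cells of all 6 samples had been held in prometaphase with nocodazole, a drug that depolymerizes microtubules, at 50 ng/ml for 15 h by the labels, and no asynchronous cells were measured on these arrays. The plasmid was introduced by transfection, and the share of cells that took it up was not analysed here. The comparison asks whether Stau155-FLAG expression altered the level of these transcripts in cells arrested where the kinetochore is fully assembled. Levels are log2 intensities after background correction and quantile normalization, and every difference is Stau1 minus control.

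Median intensities of the arrays lay between 83.0 and 102.2 and 12730 to 13469 rows were detected per array. All 7 mitotic markers examined and 5 of 6 markers of the HEK293T line were detected on all 6 arrays. The summed intensity of the mitotic markers, before correction and normalization, was 22946 to 36754 in control and 28274 to 31647 in Stau1 samples. Without asynchronous cells these markers do not check the arrest. Of 6 markers of fibroblasts, leukocytes and hepatocytes, 5 were detected on 0 arrays, while COL1A1 was detected on all 6, and its part in the results was not tested. STAU1 itself read 11.19, 11.38 and 11.36 in the controls and 11.39, 11.51 and 11.47 in the Stau1 samples. These groups did not overlap, but the difference of 0.15 (SE 0.09) did not pass the test (limma adjusted p = 0.999). The sources used here do not say whether its probes read the transcript of the plasmid. At the protein level, the paper reports the tagged protein in such cells by western blot, at less than endogenous Stau1.

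The promoters of 4 members are shown. INCENP and SPC24 were taken because their groups did not overlap, and CENPF because it had the lowest p of the members. CDCA8, a partner of INCENP in the chromosomal passenger complex, was added although its own difference was -0.03. Each line gives the 120 bases before the RefSeq start site on the strand of the gene, in GRCh38.p14, at chr11:62123891-62124010 (plus strand) for INCENP, chr1:37692396-37692515 (plus strand) for CDCA8, chr1:214603075-214603194 (plus strand) for CENPF and chr19:11155783-11155902 (minus strand) for SPC24. Capitals mark TTTGAA, a form of the cell cycle homology region found in genes expressed in G2 and mitosis, and CCAAT, the box bound by NF-Y, which reads ATTGG where it lies on the opposite strand.
INCENP: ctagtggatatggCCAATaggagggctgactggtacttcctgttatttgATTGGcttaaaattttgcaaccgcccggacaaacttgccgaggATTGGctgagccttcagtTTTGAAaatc
CDCA8: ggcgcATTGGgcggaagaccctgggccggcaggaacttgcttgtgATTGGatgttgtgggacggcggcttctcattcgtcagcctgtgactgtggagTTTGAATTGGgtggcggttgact
CENPF: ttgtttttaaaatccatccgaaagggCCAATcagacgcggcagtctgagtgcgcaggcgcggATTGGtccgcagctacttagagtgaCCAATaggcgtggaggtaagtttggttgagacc
SPC24: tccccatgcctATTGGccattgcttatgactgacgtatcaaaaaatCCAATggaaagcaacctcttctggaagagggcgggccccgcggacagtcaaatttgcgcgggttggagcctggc

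INCENP and CDCA8 both held a TTTGAA close to the start site and 3 CCAAT boxes on either strand. The TTTGAA began at -10 in INCENP and at -23 in CDCA8, where it overlaps an ATTGG that begins at -18. In CENPF the motif lay behind the start site, at 41, and SPC24 held CCAAT boxes but no TTTGAA in its window. CENPF also held a TTTAAA at -115, which is not in capitals above. AURKB, another partner of INCENP that is not shown, held CCAAT but no TTTGAA in its window.

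RefSeq promoters of 250 bases before to 50 after the start site were found for 31 of the 38 measured members. TTTGAA stood in 14 of the 31 on either strand (45.2%), against 18.2% of 27305 genes with a promoter and 13.6% of the 7507 among them that matched a kept row. CCAAT was found in 21 (67.7%), against 39.7% and 43.7%. TTCCCGC, a form of the site of E2F factors, was found in 8 (25.8%), against 7.82% and 13.1%. TTTAAA, searched as another form of the cell cycle homology region, was found in 3 (9.68%), against 14.5% and 10.9%. TTTGGCGC was found in OIP5 alone (3.23%), against 0.795% and 1.39%. The median log2 difference was -0.02 over the 14 tested members with TTTGAA and 0.01 over the 16 without it, a description with no test.

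No member passed an adjusted p of 0.05: the count was 0 of 37, beside 0% of all 13285 rows, and the limma adjusted p was 0.999 for each. At an unadjusted p under 0.05 stood 2 of 37 members (5.41%), INCENP and CENPF, beside 3.73% of all rows. The groups did not overlap in 2 of 37 (5.41%), INCENP and SPC24, beside 7.91% of all rows. Both shares lie near the background. The difference was above 0 in 17 members and below 0 in 20 (45.9% above, against 49.4% of all rows). The median difference of the members was -0.01, against -0.0021 over all rows, and the median size of a difference, sign left aside, was 0.07 against 0.09. In RNA from whole cultures, fewer cells in prometaphase and less RNA per cell cannot be told apart.

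The members' data also set limits on the size of any difference. The SE of a member had a median of 0.13 and ran from 0.08 to 0.27. The 95% interval lay inside 1.5-fold in either direction for 32 of 37 members (86.5%, against 87.0% of all rows) and inside 2-fold for 37 of 37. CENPF, CENPQ, MLF1IP, CASC5 and INCENP were the 5 whose interval passed 1.5-fold. The mean number of beads per member and array was 23 to 61, and the bead SE was 1.80% to 8.09% of the intensity. Of the 37 members, 23 were rows of 1 probe. The rest, INCENP and CASC5 among them, were means over several probes, which cannot be seen singly here.

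**Figure D1:**
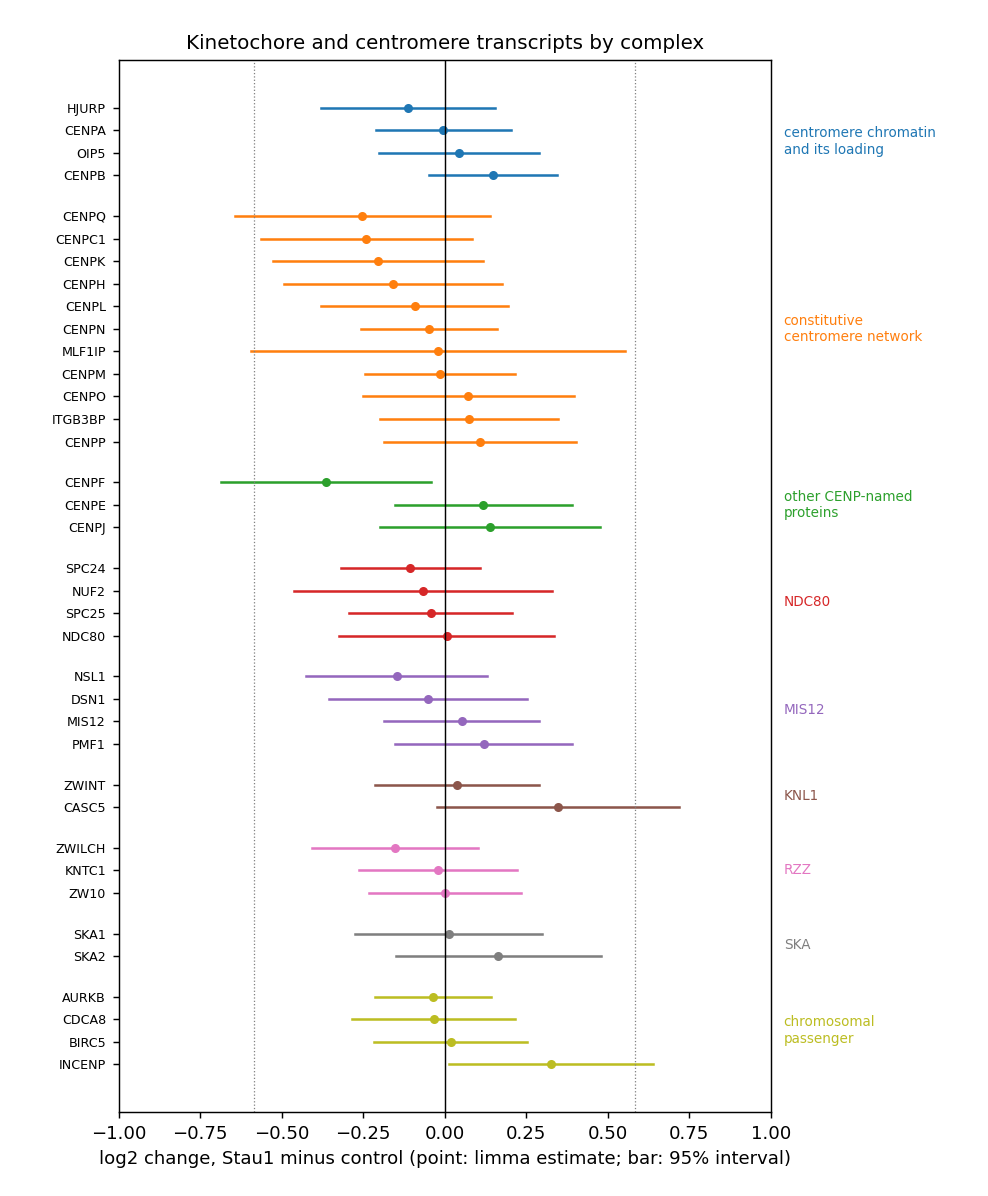
Log2 difference (Stau1 minus control) of the 37 tested members, grouped by complex, with points for limma estimates, bars for 95% intervals and dotted lines at 1.5-fold in either direction. Estimates run from -0.36 for CENPF to 0.35 for CASC5, the bars of CENPF and INCENP alone leave out 0 before adjustment, and 32 of the 37 bars stay between the dotted lines.

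The first group of members makes and reads centromeric chromatin. CENPB, which binds a motif in alpha-satellite DNA, had the lowest p of this group. It read 11.70, 11.48 and 11.58 in the controls and 11.74, 11.68 and 11.78 in the Stau1 samples. Control 1 lay inside the range of the Stau1 samples and the other two controls below it, and the difference was 0.15 (SE 0.09). CENPA, the histone variant itself, gave 10.50 ± 0.02 in control and 10.50 ± 0.07 in Stau1 samples (SD, n = 3 each, as for all further means). Its chaperone HJURP gave 9.25 ± 0.14 and 9.14 ± 0.12, a difference of -0.11. OIP5, a subunit of the MIS18 complex that licenses the loading of CENP-A, gave 10.82 ± 0.19 and 10.86 ± 0.11. The median difference of these 4 genes was 0.02.

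The constitutive centromere network links CENP-A chromatin to the outer kinetochore. Of its 11 tested members, 8 were below 0 and 3 above (27.3% above, against 49.4% of all rows), with a median of -0.05. An unadjusted p of 0.05 was passed by 0 of 11, beside 3.73% of all rows. CENPC1 (now CENPC), which binds the CENP-A nucleosome and the MIS12 complex, had the lowest p. It read 5.90, 6.01 and 5.66 in the controls and 5.71, 5.70 and 5.45 in the Stau1 samples. The groups overlapped because control 3 lay below Stau1 samples 1 and 2, and the difference was -0.24 (SE 0.15). Its signal lay close to background, with a detection p up to 0.0474, and the difference was -0.01 when the background was inferred from all rows.

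The differences furthest from 0 in the rest of the network belonged to subunits of 2 of its subcomplexes. CENPQ, of the group that also holds CENPO, CENPP and MLF1IP (now CENPU), gave 8.46 ± 0.27 and 8.20 ± 0.32, a difference of -0.25. CENPK and CENPH, partners of CENPI, gave differences of -0.21 and -0.16. CENPO and CENPP, from the group of CENPQ, lay at 0.07 and 0.11. Subunits of 1 group thus took opposite signs, and none of these differences passed the test.

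Of the remaining network members, CENPL gave -0.09 and its partner CENPN -0.05, CENPM gave -0.01, and ITGB3BP (now CENPR) gave 0.07. MLF1IP had the largest SE of all members and was singled out for it after its values were seen. It read 5.81, 6.68 and 7.10 in the controls and 6.55, 6.76 and 6.22 in the Stau1 samples, so that controls 1 and 3 lay outside the whole range of the Stau1 samples on opposite sides. Its difference was -0.02 (SE 0.27), with a 95% interval from -0.59 to 0.55, and its detection p reached 0.0237.

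**Figure D2:**
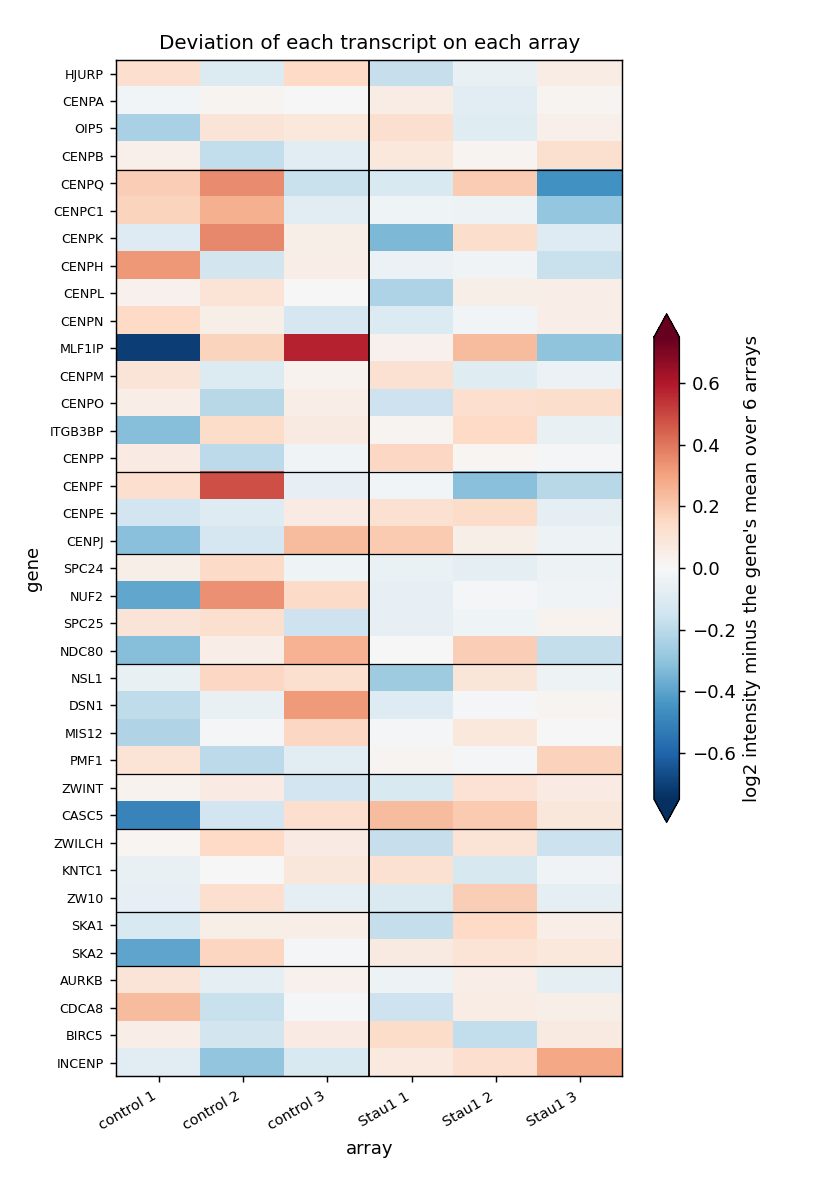
Deviation of each tested member (rows, in the order of the complexes, separated by lines) from its own mean over the 6 arrays (columns), in log2 units, red above and blue below the mean. MLF1IP ranges most widely, with control 1 lowest and control 3 highest, CENPF is highest in control 2, and INCENP is below its mean in all controls and above it in all Stau1 samples.

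The other proteins named CENP are CENPF and CENPE, which act at the outer kinetochore, and CENPJ, which in spite of its symbol is a centriole protein. CENPF, a large coiled-coil protein that accumulates in G2 and joins the corona of the kinetochore, had the difference furthest below 0 of all members. It read 9.22, 9.58 and 9.03 in the controls and 9.07, 8.78 and 8.89 in the Stau1 samples. Control 2 stood above the other 5 samples, and control 3 lay just below Stau1 sample 1, so the groups overlapped. The difference was -0.36 (SE 0.15, limma unadjusted p = 0.0301), which is 0.777 times the control level. It was -0.21 without control replicate 2 and -0.49 without control replicate 3.

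CENPE, the kinesin that carries chromosomes towards the metaphase plate, gave 8.74 ± 0.11 and 8.86 ± 0.11, a difference of 0.12. CENPJ gave 8.33 ± 0.28 and 8.47 ± 0.12, a difference of 0.14.

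In the NDC80 complex, the microtubule-binding part of the outer kinetochore, SPC24 had the lowest p and is one of 2 members on the study's list of transcripts bound by Stau1. Membership of that list is used here, not its values, and the list rests on other arrays, hybridized with RNA that was precipitated with the tagged protein. SPC24 read 10.44, 10.54 and 10.36 in the controls and 10.34, 10.33 and 10.35 in the Stau1 samples. All controls lay above all Stau1 samples, with control 3 and Stau1 sample 3 next to each other at 10.36 and 10.35. The Stau1 samples spread little (SD 0.01, against 0.09 in control). The difference was -0.10 (SE 0.10, limma unadjusted p = 0.307), with a 95% interval from -0.32 to 0.11. Under median scaling it was -0.02, beside a median of 0.0679 over all rows, and the groups overlapped.

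SPC25, which pairs with SPC24 at the inner end of the complex, gave 9.60 ± 0.15 and 9.55 ± 0.04. At the microtubule end, NDC80 gave 9.45 ± 0.29 and 9.45 ± 0.18. NUF2 gave 7.36 ± 0.38 and 7.29 ± 0.03, with a detection p up to 0.0333. The control SD exceeded the Stau1 SD in all 4 genes of this complex. Over all tested members this was so in 23 of 37 (62.2%), against 68.4% of all rows.

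The MIS12 complex joins the centromere network to NDC80 and KNL1. NSL1 had the lowest p of its 4 genes and read 9.15, 9.35 and 9.32 in the controls and 8.93, 9.29 and 9.16 in the Stau1 samples. Stau1 sample 1 was the lowest, the groups overlapped, and the difference was -0.15 (SE 0.13). DSN1 and MIS12 lay at -0.05 and 0.05, and PMF1 at 0.12. The median of the complex was 0.00025, with 2 genes on each side of 0.

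CASC5 (now KNL1) is the scaffold that docks the BUB kinases of the spindle checkpoint, and ZWINT is its partner. CASC5 read 5.74, 6.10 and 6.37 in the controls and 6.48, 6.44 and 6.33 in the Stau1 samples. The groups overlapped because control 3 lay above Stau1 sample 3, and control 1 was far below the rest. Its difference of 0.35 (SE 0.17, limma unadjusted p = 0.0645) was the furthest above 0 of all members. It was 0.19 without control replicate 1 and 0.49 without control replicate 3. With the background inferred from all rows it was 0.02 (limma unadjusted p = 0.0682). ZWINT gave 9.48 ± 0.11 and 9.52 ± 0.12, a difference of 0.04.

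The RZZ complex recruits dynein and the MAD proteins to unattached kinetochores. ZWILCH had its lowest p and read 9.57, 9.71 and 9.62 in the controls and 9.38, 9.66 and 9.39 in the Stau1 samples. Stau1 samples 1 and 3 lay below all controls and Stau1 sample 2 lay among them, and the difference was -0.15 (SE 0.12). ZW10 gave 10.89 ± 0.11 and 10.89 ± 0.16, and KNTC1, the gene of the ROD protein, gave 9.67 ± 0.07 and 9.65 ± 0.12.

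SKA1 is the second member on the list of transcripts bound by Stau1. It read 8.56, 8.72 and 8.73 in the controls and 8.50, 8.83 and 8.73 in the Stau1 samples. The Stau1 samples spanned the controls on both sides, and the difference was 0.01 (SE 0.13), with a 95% interval from -0.27 to 0.30. SKA2 read 8.54, 9.10 and 8.92 in the controls and 9.00, 9.04 and 9.01 in the Stau1 samples. Control 1 stood well below the other 5 samples, and the difference of 0.16 (SE 0.15) became 0.0083 without control replicate 1.

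**Figure D3:**
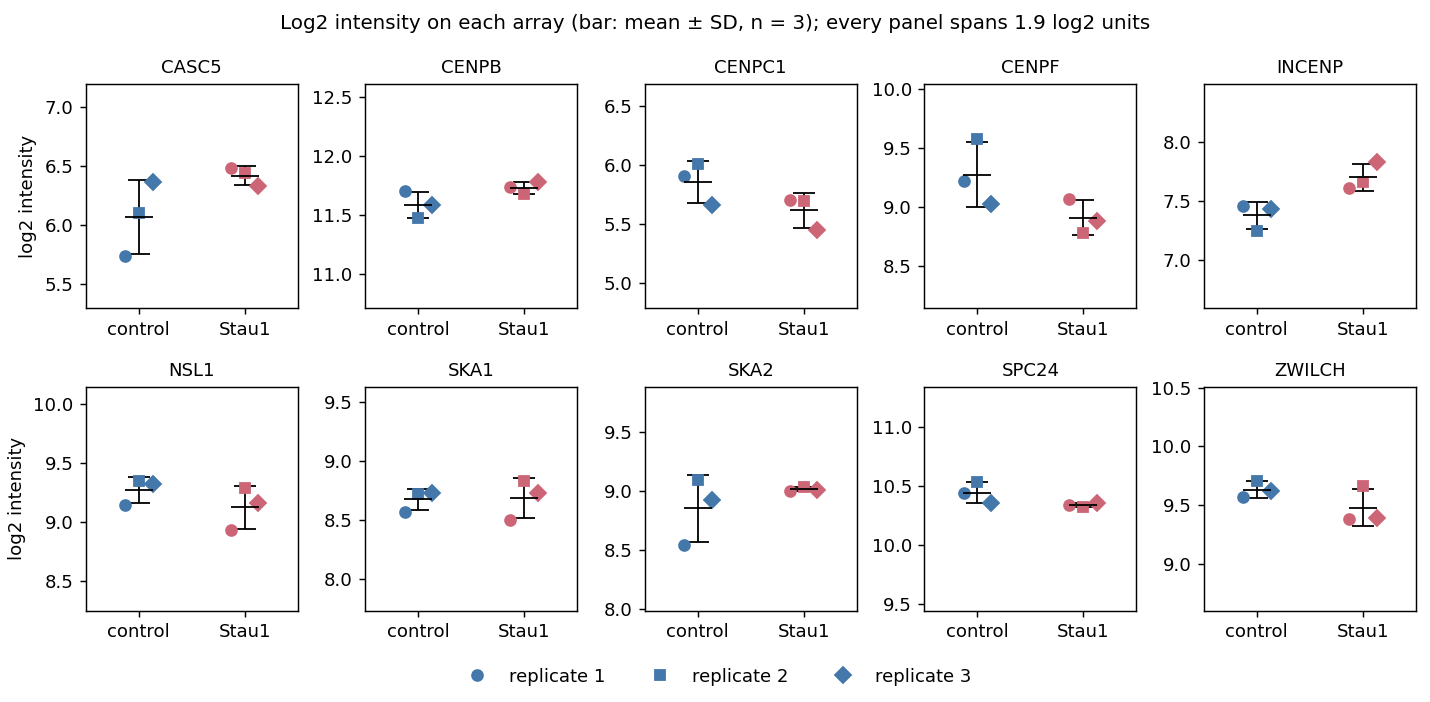
Log2 intensity on each array for 10 members, SPC24, SKA1 and those of lowest p or without overlap of the groups, with control samples in blue, Stau1 samples in red, marker shape for the replicate number and bars for mean ± SD (n = 3). Each panel covers the same span of log2 units. INCENP and SPC24 are the panels with no overlap, and in CASC5 and SKA2 control 1 lies apart from the rest.

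The chromosomal passenger complex consists of the kinase Aurora B (AURKB), its activating scaffold INCENP, and survivin (BIRC5) and borealin (CDCA8), which target it to the centromere. INCENP read 7.46, 7.25 and 7.43 in the controls and 7.61, 7.66 and 7.83 in the Stau1 samples. All Stau1 samples lay above all controls. The difference was 0.32 (SE 0.14, limma unadjusted p = 0.0428), or 1.25-fold, with a 95% interval from 0.01 to 0.64. It was 0.06 with the background inferred from all rows (limma unadjusted p = 0.0340). With no background correction it was 0.22 (limma unadjusted p = 0.0366) and with array weights 0.42 (limma unadjusted p = 0.00749). Under median scaling it was 0.41, beside a median of 0.0679 over all rows, and the groups overlapped (limma unadjusted p = 0.0923).

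The other three subunits lay closer to 0. AURKB gave 12.52 ± 0.08 and 12.49 ± 0.06, a difference of -0.04 (SE 0.08). BIRC5 gave 10.94 ± 0.11 and 10.96 ± 0.17, and CDCA8 gave 11.09 ± 0.21 and 11.06 ± 0.12. The median of the 4 genes was -0.0078.

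The 9 complexes as counted here include the centromere chromatin genes and the other CENP-named proteins, which are gene groups rather than complexes. Taken complex by complex on each array, as the median deviation of the genes from their means, the groups did not overlap in 1 of 9 complexes. That was the KNL1 pair, with -0.24, -0.04 and -0.0092 in the controls and 0.06, 0.15 and 0.07 in the Stau1 samples, a median of 2 genes. The groups overlapped in CASC5 and in ZWINT taken singly, and the 2 genes correlated at r = -0.27. Of single rows, 7.91% were without overlap, and no such share was computed for medians of genes. For the NDC80 complex the controls, from -0.14 to 0.13, enclosed the Stau1 samples, from -0.05 to -0.02. In the constitutive network the controls lay between 0.02 and 0.10 and the Stau1 samples between -0.06 and 0.04, and the groups overlapped. The medians of the other complexes overlapped as well.

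**Figure D4:**
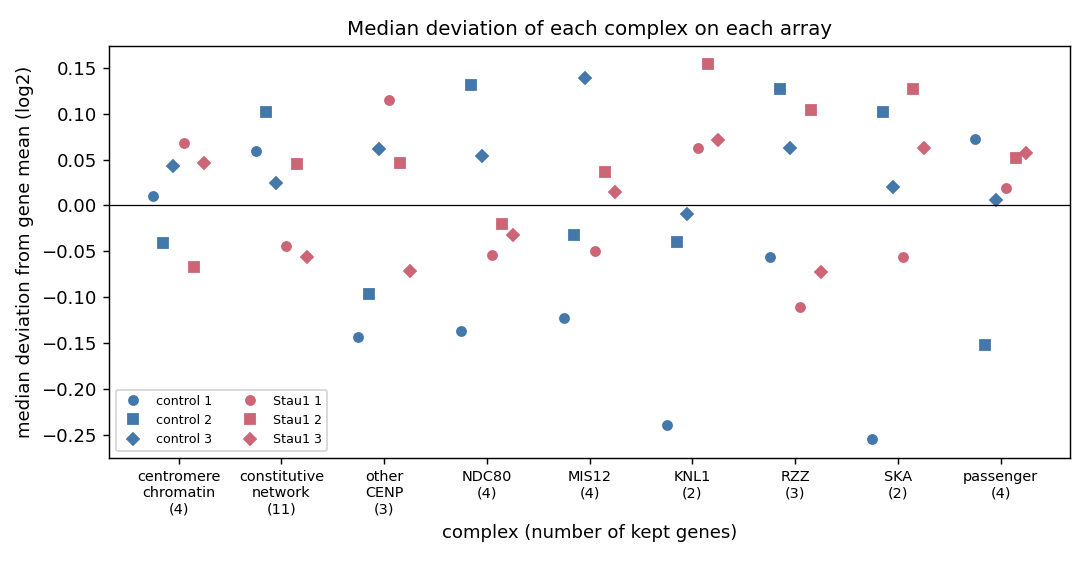
Median deviation of the tested genes of each complex from their means, in log2 units, on each of the 6 arrays, with control samples in blue and Stau1 samples in red and the number of genes in brackets. In the KNL1 pair alone do the controls and the Stau1 samples not overlap, and control 1 is the lowest sample in 5 of the complexes.

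Across the 6 arrays, pairs of genes from 1 complex were correlated about as often in one direction as in the other. The median Pearson r was -0.03 over the 87 pairs within a complex, -0.03 over the 579 pairs between complexes and -0.001 over all pairs of rows. The 87 include pairs from gene groups that are not complexes. These are 3 pairs of the other CENP-named proteins (median r = -0.44) and 6 of the centromere chromatin genes (median r = -0.12). These are descriptions over 6 points that share their arrays. Within complexes the highest r was 0.91, for CENPC1 with CENPQ, and the lowest -0.93, for CENPK with CENPP, both in the constitutive network. In the NDC80 complex SPC24 with SPC25 had r = 0.74 and NDC80 with SPC25 had r = -0.68. After removal of the group means the medians were 0.0016, -0.04 and 0.

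Control 3 stood closer to the Stau1 samples than to the other controls. Over the 37 members, it correlated with the 3 Stau1 samples at r = 0.991 to 0.994 and with controls 1 and 2 at 0.979 and 0.988. Control 1 was the lowest of the 6 samples in 11 members, and control 2 the highest in 11. Control 2 was the highest or lowest sample in 51.4% of members, against 40.1% of all rows, and control 1 in 40.5%, against 52.4%.

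Of 24 genes for other centromere proteins, microtubule-plus-end factors and checkpoint proteins, 23 had a row and 21 were tested. CENPBD1 had no row under that name, and SGOL2 and KIF18A were detected on 0 arrays. By limma, 0 of 21 passed the adjusted threshold and 0 an unadjusted p of 0.05, beside 0% and 3.73% of all rows. The difference was above 0 in 14 and below 0 in 7 (66.7% above, against 49.4% of all rows). The median was 0.07, against -0.0021 over all rows. The groups did not overlap in 2 of 21 (9.52%, beside 7.91% of all rows), NDE1 and CLIP1.

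NDE1, a dynein regulator at the kinetochore, gave 8.67 ± 0.07 in control and 8.87 ± 0.08 in Stau1 samples, a difference of 0.20 (SE 0.12). BUB1B, the checkpoint protein BUBR1, gave 7.88 ± 0.32 and 8.12 ± 0.05, a difference of 0.25 (SE 0.17). BUB3, the adaptor of the BUB kinases, gave 11.69 ± 0.16 and 11.55 ± 0.05, a difference of -0.14 (SE 0.10). These had the 3 lowest p-values of that list, and the limma adjusted p was 0.999 for each.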

How the data were processed

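The table deposited by the authors was a BeadStudio gene profile, in which a row is the mean over the probes of 1 gene. Per the file headers it holds a signal intensity per array that was not normalized, a detection p-value that sets the intensity against negative controls, the standard error over beads and the mean number of beads. No value column was left without a sample, and groups came from the sample titles. The labels do not say whether replicates came from separate cultures, so p-values measure the spread between these samples, which may be technical.

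Intensities were corrected with normexp in limma 3.58.1 (R 4.3.3), with the background inferred from the detection p-values of 30932 rows of 1 probe (bead numbers whole, detection p in whole steps of 1 in 759 within 0.002 steps), an offset of 16, quantile normalization and log2. A row was kept where 3 or more of the 6 arrays gave it a detection p under 0.05 (13285, 35.1%). The fit used lmFit and eBayes with a variance trend, two-sided, and Benjamini-Hochberg adjustment over all kept rows. It was tested on simulated data in which 200 of 13285 rows were changed. The adjusted threshold recovered 34 of the 200 (17%) at 1.5-fold and 159 (79.5%) at 2-fold, so most changes of 1.5-fold were missed. An exact permutation of 3 against 3 samples cannot give a p below 0.1. Values per array were given for SPC24 and SKA1, for members at an unadjusted p under 0.05 or without overlap of the groups, and for the member of lowest p in each complex, and also for MLF1IP, outside this rule. The other kinetochore genes given with values were the 3 of lowest p. The members, lists and rules were chosen with earlier results of these data known. A further listed marker of other cell types was left out of all counts and is not reported here. Alternatives were other background corrections, offsets, normalizations, filters, variance settings, array weights, a replicate block, the methods' t-test and each array left out. Promoters came from RefSeq (GRCh38.p14), and a gene counted for a motif if any of its windows held it.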

Additional observations from a re-analysis of the deposited data

How the results depend on the processing

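The count of members past an adjusted p of 0.05 was 0 under all 17 alternatives, with a lowest adjusted p of 0.208 by limma (CENPF, without control replicate 3), and the count of other kinetochore genes was 0 under all 17 as well. Of all rows, 47 of 12854 passed without control replicate 3. Of the 37 members, 17 kept the sign of their difference under every alternative in which they were tested and 20 changed it under at least 1. The median difference of the KNL1 pair was 0.0969 without any background correction and 0.0273 where all rows served to infer the background. Under median scaling 0 members had an unadjusted p under 0.05 (1.72% of all rows) and in 0 the groups did not overlap (3.81% of all rows). The median over all rows was then 0.0679, beside 0.0702 for the members, 0.113 for the centromere chromatin genes, 0.000994 for the constitutive network and 0.0820 for the chromosomal passenger genes. Members at an unadjusted p under 0.05 numbered 6 with array weights (9.77% of all rows passed there) and 1 by the methods' t-test (3.49% of all rows). The deviations of samples with the same replicate number correlated at r = 0.02, 0.26 and -0.14, and the samples were treated as unpaired. With a replicate block 0 members passed the adjusted threshold and 2 an unadjusted p under 0.05 (4.55% of all rows). With 1 array left out in turn, members at an unadjusted p under 0.05 numbered 0 to 4. They numbered 0 without control replicate 2 (2.26% of all rows), Stau1 replicate 2 (3.16%) or Stau1 replicate 3 (1.71%). Without control replicate 3 they numbered 4 (12.9% of all rows). Members without overlap when 1 array was left out numbered 4 to 9, beside 12.5% to 29.2% of all rows. The highest number was without control replicate 3 (24.3% of members, 29.2% of all rows). The ranges of the median difference with 1 array left out were -0.0493 to 0.00451 for all members, -0.0406 to 0.0689 for centromere chromatin, -0.135 to -0.0395 for the constitutive network, 0.0159 to 0.184 for the other CENP-named proteins and -0.103 to 0.102 for MIS12. SKA1 ranged from -0.0596 to 0.107 and was below 0 without control replicate 1 or Stau1 replicates 2 or 3. INCENP had an unadjusted p under 0.05 under 13 of 17 alternatives and CENPF under 12. The cause of these shifts was not tested. Signal over background limits CENPC1, NUF2 and MLF1IP, with detection p-values of up to 0.0474, 0.0333 and 0.0237. It also limits CASC5, whose difference was 0.02 where all rows served to infer the background. The difference of INCENP was 0.06 under that setting, against 0.32 in the main fit.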
